A study of Caenorhabditis elegans with 2 samples.

Results

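The heat shock, DnaJ and chaperonin genes of Caenorhabditis elegans were taken as all protein-coding genes whose Ensembl symbol starts with hsp-, dnj- or cct-, which gave 59 of 19973 genes. They carry 57 symbols, because hsp-16.1 and hsp-16.48 each name 2 gene copies. The other copies are called here by their RefSeq names, hsp-16.11 and hsp-16.49. The 59 genes comprised 6 HSP70 genes, 2 HSP90 genes, the mitochondrial chaperonin gene hsp-60, 8 subunits of the cytosolic chaperonin TRiC, 29 J protein genes and 13 small heat shock protein genes. Of these, 7 were classed as heat-inducible, 21 as constitutive and 31 as neither. Heat-inducible means near silent without stress and strongly induced by heat. Constitutive means expressed without stress in some stage or tissue, and several of these genes also rise with stress. The classes do not rest on expression measured in these embryos. The class in neither held hsp-4, hsp-17 and every dnj- gene.

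ChIP-seq mapped where GFP-tagged ALY-1, a nuclear adaptor of the Aly/REF family for messenger RNA export, was recovered on chromatin of whole early embryos. The embryos were from hermaphrodites of strain OP502, with the genotype unc-119(tm4063) III and the transgene wgIs502, which supplies ALY-1 with a GFP-FLAG tag at its C terminus. They were collected 0 hours after egg bleaching had synchronised them, their chromatin was fragmented by sonication, and anti-GFP antibody was used. There was 1 group of 2 biological replicates, set against the same single control alignment. No heat treatment is labelled, and an immunoprecipitation from untagged animals was not analysed here, so binding with and without heat was not compared and signal that does not depend on ALY-1 was not measured. The labels give neither the transgene's copy number nor its level, and peak lists do not allow a check of the stage by marker genes. The depth behind each peak is unknown.

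Heat shock proteins and chaperonins bind unfolded proteins and help them to fold, be transported or be kept soluble. HSP70 proteins work in cycles of ATP hydrolysis started by J proteins, HSP90 proteins act later on selected clients, chaperonins enclose a client in a barrel, and small heat shock proteins hold unfolded clients without ATP. Most members are expressed in growing cells, whereas a few, above all hsp-16 genes and hsp-70, are near silent until heat activates heat shock factor 1, which binds inverted repeats of GAA upstream of them. Aly/REF proteins in other organisms load onto messenger RNA while it is made, so they can be recovered with transcribed genes.

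The sequences under 5 of the thresholded peaks and upstream of 3 heat-inducible or heat shock element genes are shown first, because the results turn on where these peaks lay. All are ce11 sequence (WBcel235), read from the RefSeq genome on the strand of the named gene, 5′ to 3′. The strongest peak at any member had its summit in a tRNA gene past the 3′ end of dnj-5 (II:6853220-6853340, minus strand, 60 bases on each side of the summit). Capitals mark the tRNA gene.
dnj-5 summit: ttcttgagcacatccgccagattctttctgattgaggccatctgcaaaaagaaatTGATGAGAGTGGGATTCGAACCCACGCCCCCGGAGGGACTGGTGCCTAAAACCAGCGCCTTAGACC

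The best peaks at hsp-3 and hsp-1 lay in coding exons and that at dnj-14 lay before the gene, so both kinds of place are shown. These are the coding summit of hsp-3 (X:6089584-6089704, minus strand), the coding summit of hsp-1 (IV:17279685-17279805, plus strand) and the summit before dnj-14 (X:4711973-4712093, minus strand). Capitals mark the 11 bases centred on the summit.
hsp-3 coding summit: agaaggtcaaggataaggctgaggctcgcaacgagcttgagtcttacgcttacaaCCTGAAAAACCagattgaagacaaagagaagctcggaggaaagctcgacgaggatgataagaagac
hsp-1 coding summit: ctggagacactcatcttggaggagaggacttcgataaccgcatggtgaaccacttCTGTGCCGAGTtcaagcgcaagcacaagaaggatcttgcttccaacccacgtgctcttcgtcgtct
dnj-14 summit: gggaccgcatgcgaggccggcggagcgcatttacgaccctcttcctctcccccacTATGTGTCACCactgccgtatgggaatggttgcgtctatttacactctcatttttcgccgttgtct

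Heat shock elements were searched as GAANNTTC and TTCNNGAA, which read the same on both strands, and as 3 alternating units with the same spacing, which contain the 2-unit forms. The next 4 sequences show units of such elements in capitals: the summit between hsp-60 and its divergent neighbour (III:1619006-1619206, plus strand), the 250 bases before hsp-90 (V:14684668-14684917, plus strand), the 250 bases before hsp-16.1 (V:9087783-9088032, minus strand), and the whole of the 220 bases between hsp-16.2 and hsp-16.41 (V:1804958-1805177, on the minus strand of hsp-16.2).
hsp-60 summit: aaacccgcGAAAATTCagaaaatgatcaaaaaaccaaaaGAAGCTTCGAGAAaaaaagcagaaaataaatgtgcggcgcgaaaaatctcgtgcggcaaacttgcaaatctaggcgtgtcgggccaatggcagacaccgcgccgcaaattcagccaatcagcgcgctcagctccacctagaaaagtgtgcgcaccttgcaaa
hsp-90 upstream: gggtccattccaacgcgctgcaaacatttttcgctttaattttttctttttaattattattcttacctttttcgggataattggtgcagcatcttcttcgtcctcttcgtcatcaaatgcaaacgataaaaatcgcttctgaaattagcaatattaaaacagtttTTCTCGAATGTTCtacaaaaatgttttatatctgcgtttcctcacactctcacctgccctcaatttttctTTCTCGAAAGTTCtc
hsp-16.1 upstream: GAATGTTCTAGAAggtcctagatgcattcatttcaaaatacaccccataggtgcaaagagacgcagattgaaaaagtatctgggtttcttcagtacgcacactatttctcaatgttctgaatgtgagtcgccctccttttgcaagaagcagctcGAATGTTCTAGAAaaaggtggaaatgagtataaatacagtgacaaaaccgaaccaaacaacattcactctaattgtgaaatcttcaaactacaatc
hsp-16.2 upstream: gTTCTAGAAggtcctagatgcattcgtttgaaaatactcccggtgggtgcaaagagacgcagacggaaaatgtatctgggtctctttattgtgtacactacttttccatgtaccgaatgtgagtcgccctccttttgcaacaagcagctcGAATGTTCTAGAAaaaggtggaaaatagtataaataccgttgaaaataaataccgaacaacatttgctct

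Thresholded peaks lay at 7 of the 59 members (11.9%): dnj-5, dnj-29, hsp-3, hsp-60, hsp-1, dnj-14 and dnj-16. Over all protein-coding genes, 804 of 19973 (4.03%) had such a peak. A peak was placed at a gene when its summit lay between 1000 bp upstream of the 5′ end and 500 bp past the 3′ end. Thresholded peaks are the 881 that the authors kept after measuring reproducibility, and they are also the 881 strongest of the 30000 candidate peaks called on both replicates pooled. Rank 1 is the peak with the highest signal, a score from the authors' peak caller that was used only for ranking within a list. The replicate ranks given for a peak are those of the best-ranked replicate peak overlapping it by at least 1 bp, whose summit can lie elsewhere. The 7 genes carried 8 of these peaks, because hsp-3 had 2. None of the 7 was heat-inducible, 3 were constitutive and 4 were J protein genes in neither class.

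Candidate peaks of any rank lay at 49 of the 59 members (83.1%), against 60.1% of all protein-coding genes, and 162 of the 30000 peaks were at members. Background regions are part of the candidate list. A pooled rank of 5000 or better was reached by 17 members (28.8%), against 18.4% of all protein-coding genes. The median best rank, with genes lacking a peak set below every rank, was 7716 for members and 21353 for all protein-coding genes. Members were slightly longer, with a median of 2289 bp against 2027 bp, and a longer gene has more room for a summit. Per kilobase of window, members held 0.582 candidate peaks and all protein-coding genes 0.329. Some pooled peaks overlap each other, so counts of peaks here and below are not counts of separate sites. The separate replicate lists gave the same order. In replicate 1, 50 members had a candidate peak against 62.4% of all genes, and the median best rank was 7535 for members and 20028 for all genes. In replicate 2, 45 members had a candidate peak against 61.4% of all genes, and the medians were 10469 and 20786. Among the 881 strongest peaks of replicate 1, 5 members had a peak against 4.06% of all genes. Among the 881 strongest of replicate 2, 6 members had one against 3.96%.

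**Figure D1:**
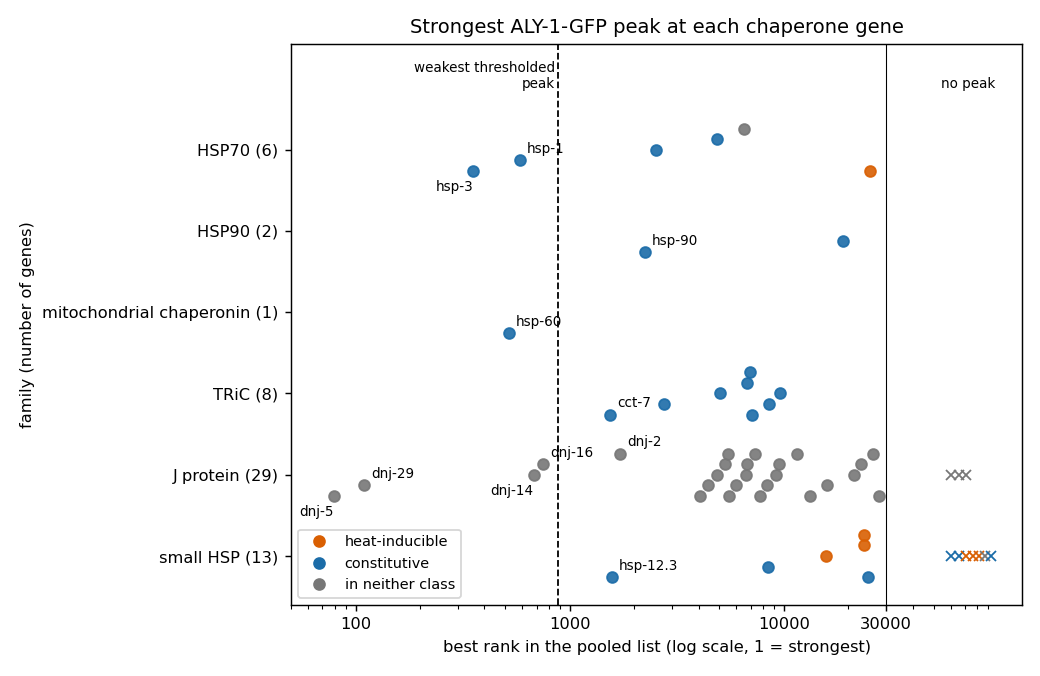
Best rank in the pooled list (log scale, rank 1 strongest) of each member, by family, with the number of genes in brackets; circles are genes coloured by heat class, staggered vertically for legibility, and crosses at the right are genes with no candidate peak. The dashed line marks rank 881, the weakest thresholded peak: 7 genes lie left of it, none of them heat-inducible, and 7 of the 13 small heat shock protein genes have no peak.

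The J protein genes held the best-ranked peaks. At dnj-5, which encodes a J protein, the peak ranked 79 in the pooled list with a signal of 215, 93 in replicate 1 and 64 in replicate 2. Its summit was 181 bp past the 3′ end of dnj-5 (peak II:6853038-6853521), inside the tRNA gene printed above and inside an intron of C04A2.15, whose 5′ end was the nearest. With peaks near tRNA, snoRNA, snRNA and rRNA genes left out, the best peak at dnj-5 ranked 2354. At dnj-29, the worm Sec63 homologue that acts with the translocon of the endoplasmic reticulum, the peak ranked 110 with a signal of 184, 138 in replicate 1 and 109 in replicate 2. Its summit was 164 bp before the 5′ end of dnj-29, which was the nearest 5′ end. The summit also lay 364 bp before ndua-2, a complex I subunit gene, and 922 bp before fld-1.

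The other thresholded peaks at J protein genes were weaker and stood close to neighbouring genes. The peak at dnj-14, the homologue of the synaptic vesicle cysteine string protein, ranked 679 with a signal of 92.3, 1790 in replicate 1 and 904 in replicate 2. It was 285 bp before dnj-14 and 246 bp before the divergent gene glit-1, a neuroligin-like gene (X:4711791-4712274), and its summit lay in the annotated non-coding RNA genes DL2.1 and DL2.2. The peak at dnj-16 ranked 754 with a signal of 89.8, 1697 in replicate 1 and 798 in replicate 2. The overlapping peak in replicate 1 had its summit more than 100 bp away. The best replicate 1 peak with its summit in the dnj-16 window ranked 8860. The pooled summit was 451 bp past the 3′ end of dnj-16 and 71 bp inside xbp-1 (III:4193638-4194121), which encodes a transcription factor of the unfolded protein response. Neither dnj-5 nor dnj-16 therefore had a thresholded peak in its own gene body or promoter window, which was set as 1000 bp upstream to 200 bp downstream of the 5′ end.

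HSP70 genes were the family with the best median rank among those of more than 2 genes, 3696. All 6 had a candidate peak, against 60.1% of all protein-coding genes. hsp-3, which encodes the BiP chaperone of the endoplasmic reticulum, had 2 thresholded peaks. The one in a coding exon, 2480 bp from the 5′ end, ranked 355 with a signal of 113, 548 in replicate 1 and 298 in replicate 2 (X:6089402-6089885). Its overlapping peak in replicate 1 had a summit more than 100 bp away. The 5′ end nearest to this coding summit was that of C45B2.8. The one 27 bp before the 5′ end ranked 394 with a signal of 109, 574 in replicate 1 and 312 in replicate 2. hsp-3 held 7 candidate peaks, some of them overlapping, or 1.52 per kilobase of window. hsp-1, which encodes the constitutive cytosolic HSC70, had its peak in a coding exon 786 bp from the 5′ end (IV:17279503-17279986). That peak ranked 585 with a signal of 96.8, 989 in replicate 1 and 444 in replicate 2.

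The other HSP70 genes fell past the threshold. hsp-110, which encodes a nucleotide exchange factor for HSP70, had a best rank of 2528 in an intron, with 9402 in replicate 1 and 1051 in replicate 2. hsp-6, the mitochondrial HSP70 gene, had a best rank of 4863, 460 bp before its 5′ end, with no overlapping peak in replicate 1 and rank 2169 in replicate 2. That summit was 140 bp before C37H5.5, whose 5′ end was the nearest, and in the annotated non-coding RNA genes C37H5.15 and C37H5.16. hsp-4, the second BiP gene, which responds to stress in the endoplasmic reticulum, had a best rank of 6500. The family's lowest was the heat-inducible hsp-70, at 25254. Of the BiP genes, hsp-3 therefore ranked better, although hsp-4 also held 4 candidate peaks.

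Chaperonin genes were covered in every case, and hsp-60 alone passed the threshold. hsp-60, the gene of the mitochondrial chaperonin, had a peak of rank 518 and signal 100, with 807 in replicate 1 and 529 in replicate 2. The summit was 636 bp before the annotated 5′ end of hsp-60 and 177 bp before the divergent Y22D7AL.10, which encodes its HSP10 partner (III:1618864-1619347). All 8 TRiC subunit genes had a candidate peak and none had a thresholded one, against 60.1% and 4.03% of all protein-coding genes. The median best rank of the 8 was 6804. cct-7 was the highest at 1550, with 2823 in replicate 1 and 2088 in replicate 2, 387 bp before its 5′ end but 52 bp before T10B5.4. cct-2 followed at 2763, 317 bp before its own 5′ end, which was the nearest. The other 6 subunit genes ranked between 5052 (cct-5) and 9568 (cct-1), with cct-3 at 6698. cct-5 held 12 candidate peaks, the most of any member, and none of them ranked better than 5052. Some of the 12 overlap each other.

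Neither of the 2 HSP90 genes had a thresholded peak, which 4.03% of all protein-coding genes had. hsp-90, the cytosolic HSP90 gene, held 7 candidate peaks, the best of which ranked 2239 in a coding exon 1932 bp from the 5′ end, with 1320 in replicate 1 and 2092 in replicate 2. A stronger peak of rank 376 lay 983 bp past its 3′ end, outside the window, 4 bp from a tRNA gene and nearest to gasr-8. hsp-75, the mitochondrial HSP90 (TRAP1) gene, had a best rank of 18793.

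**Figure D2:**
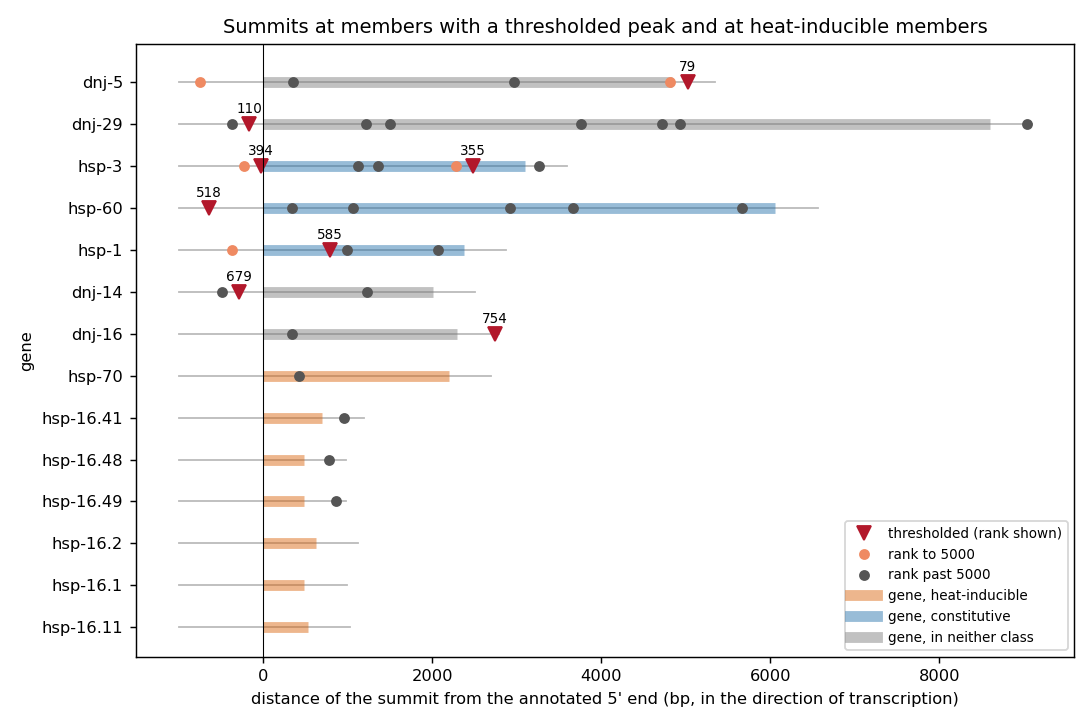
Distance in bp of each candidate summit from the annotated 5′ end, in the direction of transcription, for the 7 members with a thresholded peak (top) and the 7 heat-inducible members (bottom); thick bars are genes, thin lines the windows, triangles thresholded peaks labelled with their pooled rank, and circles weaker peaks. Of the 8 triangles, 4 lie upstream of a 5′ end, 2 inside genes and 2 past a 3′ end; the heat-inducible genes, of which all but hsp-70 are short, carry no summit upstream.

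Of the remaining J protein genes, 22 of 25 had a candidate peak, against 60.1% of all protein-coding genes. The median best rank of all 29 was 7344. dnj-2 was next after the thresholded peaks at 1720, with 723 in replicate 1 and 8140 in replicate 2, but the summit was 826 bp before its 5′ end and nearest to B0035.3. dnj-27, which encodes a thioredoxin-domain J protein of the endoplasmic reticulum, ranked 4060, with 1548 in replicate 1 and 20663 in replicate 2. dnj-13, a cytosolic class B gene, ranked 4426, and dnj-7, the homologue of the stress kinase inhibitor p58IPK, ranked 4890. The dnj-13 summit lay 62 bp past its 3′ end and 95 bp before F54D5.7, whose 5′ end was the nearest. Between 5000 and 6698 lay dnj-12, a cytosolic class A gene, at 5288, dnj-15 at 5512, dnj-30 at 5517, dnj-10, a mitochondrial J protein gene, at 5992, and dnj-11, a ribosome-associated one, at 6652. The summits at dnj-15 and dnj-30 lay past their 3′ ends, by 350 bp and 421 bp. The lowest rank in the family was 27893, at dnj-4. dnj-1, dnj-21 and dnj-26 had no pooled candidate peak. In the list of replicate 1, dnj-21 had a best rank of 7076.

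Small heat shock protein genes were the least covered family. A candidate peak lay at 6 of 13 (46.2%), against 60.1% of all protein-coding genes. The median length of 717 bp was also the shortest of the families, and 44.0% of all protein-coding genes under 1000 bp had a candidate peak. Only hsp-12.3 ranked within the first 5000. The hsp-12.3 peak ranked 1569, with 1774 in replicate 1 and 3520 in replicate 2, at the end of its last exon and 29 bp from the small nuclear RNA gene F38E11.11. Next were hsp-12.2 at 8417 and the heat-inducible hsp-16.41 at 15810. The 7 genes without a pooled candidate peak were hsp-12.1, hsp-12.6, hsp-16.1, hsp-16.11, hsp-16.2, hsp-17 and hsp-43. Of these 7, 3 are heat-inducible, 3 constitutive and 1 neither.

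Heat-inducible genes ranked below constitutive ones, and their share with a candidate peak was near that of all protein-coding genes. Of the 7 heat-inducible genes, 4 (57.1%) had a candidate peak, against 60.1% of all protein-coding genes. None of the 7 had a rank of 5000 or better, which 18.4% of all protein-coding genes and 11.2% of those under 1000 bp reached. Of the 21 constitutive genes, 18 (85.7%) had a candidate peak, 9 (42.9%) ranked 5000 or better and 3 (14.3%) were thresholded, against 60.1%, 18.4% and 4.03% of all protein-coding genes. The median best rank was 25254 for heat-inducible genes and 6698 for constitutive genes, against 21353 for all protein-coding genes. With the window widened to 2000 bp upstream and 1000 bp downstream, the heat-inducible median was 15810 and that of all protein-coding genes 15905. In replicate 1 alone the constitutive median was 3060. The median length also differed, 528 bp for heat-inducible and 2637 bp for constitutive genes. Candidate peaks per kilobase of window, which allow for length, numbered 0.250 for heat-inducible genes, 0.732 for constitutive genes and 0.329 for all protein-coding genes. In the heat-inducible value, the peak shared by hsp-16.48 and hsp-16.49 is counted for each of these genes. The 4 constitutive genes under 2000 bp held 0.290 per kilobase, close to the heat-inducible value, and all protein-coding genes under 1000 bp held 0.333. These 4 are all hsp-12 genes and held 3 peaks. The heat-inducible hsp-70, at 2195 bp, held 0.271 per kilobase, and the other HSP70 genes, of 2372 to 3097 bp, held 0.967 to 1.52. The constitutive small heat shock protein gene hsp-43, at 2393 bp, had no candidate peak. Of the 6 heat-inducible genes under 1000 bp, 3 had a candidate peak, against 1605 of 3651 (44.0%) of all protein-coding genes of that length. Of those 4 short constitutive genes, 2 had a candidate peak. Length, family and class cannot be told apart in so few genes, and no test was made, since genes are not replicates.

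No heat-inducible gene ranked better than 15810. hsp-70, the inducible cytosolic HSP70 gene, had 1 candidate peak, 424 bp inside the gene. It had rank 25254 in the pooled list, 17542 in replicate 1 and 22850 in replicate 2, and a −log10 q-value of 0.0846. At the best peaks of constitutive genes this value ran from 0.0886 (hsp-25) to 2.54 (hsp-60), with 0.577 at cct-3. The lowest at any thresholded peak was 2.20. hsp-16.41 had 1 peak 265 bp past its 3′ end, with rank 15810 in the pooled list, 26471 in replicate 1 and 13528 in replicate 2. hsp-16.48 and hsp-16.49 shared 1 peak between their 3′ ends, with pooled rank 23777 and no overlapping peak in either replicate. hsp-16.1, hsp-16.11 and hsp-16.2 had no pooled candidate peak. In the separate replicate lists, hsp-16.2 had a best rank of 26471 in replicate 1, the peak also matched to hsp-16.41, and 17109 in replicate 2. hsp-16.1 and hsp-16.11 had no peak in either replicate list. None of the 4 gene and peak pairs of this class lay in a promoter window, against 20 of 77 pairs (26.0%) of the constitutive class and 28.7% of all protein-coding genes.

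The absence of peaks at hsp-16.1 and hsp-16.11 stands beside repeated sequence. In the windows of hsp-16.1 and hsp-16.11 5.58% and 6.87% of all stretches of 36 bases occur once in the genome, and in those of hsp-16.48 and hsp-16.49 19.3%. The last 2 genes lie within an inverted repeat in which 1881 bp are identical. Among the other 55 members the share was at least 73.2% (dnj-27), with a median of 100%. No source used here gives the read length or the handling of reads with several matches, so the part of the repeats in these ranks was not tested. Of the 3 heat-inducible genes outside the repeats (hsp-70, hsp-16.2 and hsp-16.41, with shares of 97.3%, 98.7% and 99.0%), 2 had a candidate peak, and their median best rank was also 25254.

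**Figure D3:**
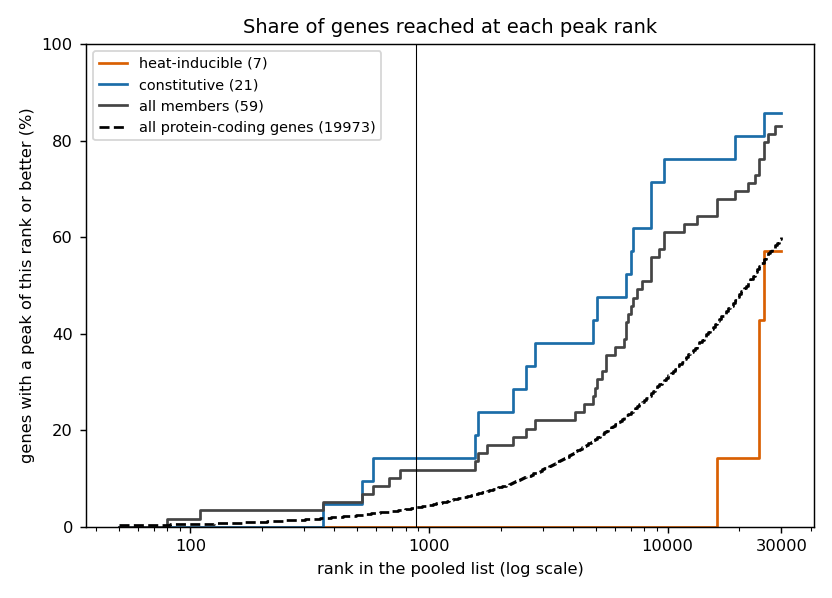
Share of genes (%) with a candidate peak at or above each pooled rank (log scale) for the heat-inducible, constitutive and all members and for all protein-coding genes (dashed); the vertical line marks rank 881. The constitutive line lies above that of all protein-coding genes from rank 355 on, and the heat-inducible line leaves 0 only at rank 15810.

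Heat shock elements lay upstream of every heat-inducible gene and near 2 of the 8 thresholded summits at members. The 3-unit form was present in the 250 bases before the 5′ end in 7 of 7 heat-inducible genes, 3 of 21 constitutive genes (hsp-110, hsp-90 and hsp-1) and 1 of 31 genes in neither class (dnj-12). Among all 19973 protein-coding genes it was present in 1.63%. The heat-inducible genes are not 7 separate promoters. The hsp-16 genes form divergent pairs: hsp-16.1 with hsp-16.48, hsp-16.11 with hsp-16.49, and hsp-16.2 with hsp-16.41. Within each pair the stretches searched overlap, so the same bases are searched for both genes. The pairs with hsp-16.48 and hsp-16.49 also lie in the repeated sequence described above. A 2-unit form was present in 47.5% of members and 27.1% of all protein-coding genes. Within 100 bases of a summit, a 2-unit form was found at 2 of the 8 thresholded peaks at members, hsp-60 and hsp-1, and in 10.4% of all thresholded peaks and 20.1% of all pooled peaks. The 3-unit form was found at hsp-60 only among those 8, and in 0.454% of all thresholded peaks. Among all 162 peaks at members, 30.2% had a 2-unit form and 3.09% a 3-unit form, against 20.1% and 0.983% of all pooled peaks. A match of letters is a description and not a measured site of heat shock factor.

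GC content was higher around thresholded summits than around weaker ones, at members as over all peaks. In the 201 bases centred on the summit, the 8 thresholded peaks at members had a median of 52.0% GC, the lowest being 38.8% at dnj-29. The other 154 candidate peaks at members had a median of 39.8%. All 881 thresholded peaks had a median of 49.8%, and all other candidate peaks 41.8%. The part of GC content in these ranks was not tested.

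By position, candidate peaks at members were spread much as those at all protein-coding genes. Of 163 pairs of a member and a peak, 30.7% lay in the promoter window, 33.1% in an exon, 23.3% in an intron and 12.9% past the 3′ end. Over all protein-coding genes the shares were 28.7%, 31.8%, 29.0% and 10.4%. The best peak of a member lay in its promoter window in 19 of 49 genes (38.8%), against 39.2% of all protein-coding genes. In 77 of the 163 pairs the nearest 5′ end belonged to another gene. When each peak went only to the gene with the nearest 5′ end, 3 of the 7 members with a thresholded peak kept one. These were dnj-29, hsp-3 and hsp-1, and hsp-3 kept its peak of rank 394 but not that of rank 355. Of all 19973 protein-coding genes, 541 (2.71%) then had a thresholded peak. Of the 8 thresholded peaks at members, 4 were in a promoter window, 2 in a coding exon, 2 past a 3′ end and none in an intron. Over all protein-coding genes 44.2% of thresholded pairs lay in the promoter window and 14.2% in an exon. Another 27.7% were intronic and 13.9% lay past the 3′ end.

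How many peaks at members were found in both replicates depended on the rule. Of the 162 peaks, 111 (68.5%) overlapped a peak in each replicate by at least 1 bp, against 60.8% of all pooled peaks. With summits required to lie within 100 bp, 55 (34.0%) were found in both, against 32.9% of all pooled peaks. Some pooled peaks overlap each other and match the same replicate peak, which applied to 54 of the peaks at members in replicate 1 and 44 in replicate 2. All 8 thresholded peaks at members overlapped a peak in both replicates, as did 100% of the 881 thresholded peaks. Ranked by the best overlapping peak, none of the 8 differed more than 5-fold between replicates, against 15.9% of all thresholded peaks. With summits within 100 bp, 6 of the 8 (75%) matched in both, against 92.2% of all thresholded peaks, and the coding peak of hsp-3 and the peak at dnj-16 had no match in replicate 1. In each of the 8, replicate 2 gave the better rank. Of the 18 matched peaks between the threshold and rank 5000, 7 (38.9%) differed more than 5-fold, against 25% of all pooled peaks in that range. The widest gaps in that range were at dnj-27 and dnj-2, which ranked far better in replicate 1, and at hsp-110, which ranked far better in replicate 2.

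**Figure D4:**
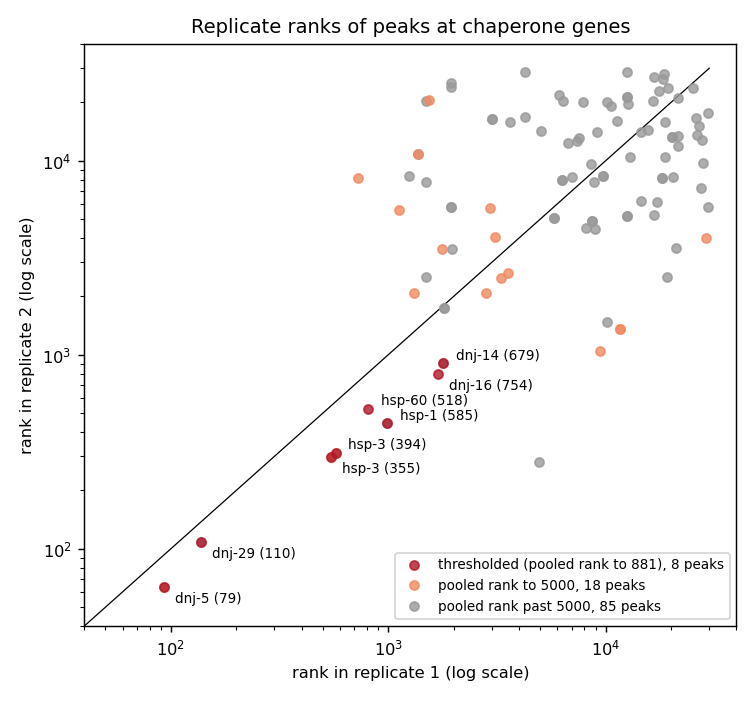
Rank in replicate 1 against rank in replicate 2 (both log scales, rank 1 strongest) of the 111 pooled peaks at members that overlap a peak in both, coloured by pooled rank; pooled peaks that overlap the same replicate peak fall on one point. The 8 thresholded peaks, labelled with gene and pooled rank, lie below the diagonal line of equal rank and spread from dnj-5 (93 and 64) to dnj-14 (1790 and 904), and weaker peaks scatter on both sides.

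Other genes of the same pathway, named without the 3 prefixes, were covered at least as often. Of 38 listed regulators, co-chaperones, prefoldin subunits and folding factors of the endoplasmic reticulum, 37 matched an annotated gene, 5 (13.5%) had a thresholded peak and 34 (91.9%) a candidate peak, with a median best rank of 3203. Over all protein-coding genes the shares were 4.03% and 60.1%, and the median best rank was 21353. T24H7.2, an HSP70-related gene, ranked 42, with the summit in an intron 41 bp from the snoRNA gene T24H7.6. unc-45, a myosin chaperone gene, ranked 174, with the summit past its 3′ end and 20 bp from the snoRNA gene F30H5.4. enpl-1, the HSP90 gene of the endoplasmic reticulum, ranked 346, 31 bp inside its 5′ end, with 460 in replicate 1 and 299 in replicate 2. Y22D7AL.10 had the peak it shares with hsp-60. cnx-1, which encodes calnexin, ranked 717, 350 bp before its 5′ end, with 3088 in replicate 1 and 395 in replicate 2. hsf-1, the gene of the heat shock factor itself, had a best rank of 11597.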

How the data were processed

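ALY-1-GFP ChIP-seq was analysed from deposited peak lists on ce11, 1 for each of 2 biological replicates, 1 pooled and 1 thresholded. Per the file listings deposited with the samples, the replicate lists were input to the irreproducible discovery rate procedure and hold background too, and the thresholded list is the optimal set passing it. Which aligner, peak caller, versions and threshold were used is not given in the sources used here. Each peak's deposited signal is a score from the authors' peak caller, used only for ranks within a list. Deposited q-values are on the −log10 scale (0.0272 to 2.73). The p-value column held a placeholder, and the ce10 lists were not used. Depth per sample is unknown.

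Genes came from Ensembl release 115 of WBcel235 (the same coordinates as ce11) and sequences from the RefSeq genome of the same assembly, read by position. Each pooled peak was matched to the best-ranked overlapping peak (at least 1 bp) of each replicate. The summit's place was the first of promoter window, exon, intron and downstream, of the gene itself. With 1 group no test was made. The members, classes and lists were chosen with earlier results of these data known. Heat classes rest on general knowledge of these genes and not on these files. The genes named are those with a thresholded peak, the 25 members with the best pooled rank, all heat-inducible members, the best and worst of each family, and other pathway genes with a thresholded peak. Genes named only to place a summit, and hsf-1 and hsp-12.2, were chosen after their values were seen. Alternatives were other windows, numbers of peaks, overlap rules, assignment by nearest 5′ end, leaving out peaks within 250 bp of tRNA, snoRNA, snRNA or rRNA genes, and each replicate alone. Counting was tested on simulated data. Python 3.11.15, numpy 2.4.6, pandas 2.3.3 and matplotlib 3.10.9 were used.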

Additional observations from a re-analysis of the deposited data

How the results depend on the processing

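No paired analysis was possible because the study has 1 group. The count of 7 members with a thresholded peak was 2 with gene bodies alone, 4 with 500 bp upstream to 100 bp downstream, 3 with the stronger 440 thresholded peaks and 3 by nearest 5′ end. Each of these was again a larger share than in all protein-coding genes (3.39% against 1.77%, 6.78% against 2.96%, 5.08% against 2.16% and 5.08% against 2.71%). Single replicates gave 5 to 6. Without replicate 2, dnj-16, hsp-1 and dnj-14 fell past rank 881 (best ranks 8860, 989 and 1790) and dnj-2 came within it (723). Without replicate 1, dnj-14 fell past it (904). Of the 7 genes, hsp-3 alone passed under all 10 alternatives. Heat-inducible genes with a candidate peak numbered 4 of 7. They numbered 1 (14.3%, against 44.5% of all protein-coding genes) with gene bodies alone and 1 (14.3% against 52.9%) with the 500 bp window. They numbered 7 (100% against 68.2%) with 2000 bp upstream to 1000 bp downstream and 7 (100% against 63.3%) when any overlap with the window counted, so the class lay below or above the share of all genes by setting. Without the repeated hsp-16 genes, an alternative chosen after seeing the data, it was 2 of 3. Their median best rank was 15810 with the 2000 bp window, close to the 15905 of all protein-coding genes, and could not be given with gene bodies, with the 500 bp window, by nearest 5′ end or in either replicate alone, where most of the 7 had no peak. The constitutive median of 6698 was 15012 with gene bodies alone and 3060 to 5149 in single replicates. Peaks found in both replicates numbered 55 of 162 (34.0%, against 32.9% of all pooled peaks) when summits had to lie within 100 bp. The cause of these shifts was not tested. Counts of members and of constitutive genes with a candidate peak stayed within 1.5-fold under every alternative. With 2 replicates, no untagged sample and unknown depth, the error of a single rank could not be estimated.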

Other observations

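Outside the 500 bp past the 3′ end, 2 members had a thresholded peak within 1000 bp. At hsp-90 this was the peak of rank 376 beside a tRNA gene described above, with 2262 in replicate 1 and 238 in replicate 2. At dnj-12 the peak ranked 614, with 2934 in replicate 1 and 339 in replicate 2, 730 bp past the 3′ end and 108 bp from the snoRNA gene F39B2.14. Near the far end of dnj-29, a pooled peak of rank 6226 lay 446 bp past the 3′ end and nearest to tfg-1. The best-ranked peaks overlapping it had rank 4928 in replicate 1 and 279 in replicate 2. With summits required to lie within 100 bp, the ranks were 22577 and 1235. By chromosome, the 5 members on X included 2 with a thresholded peak (hsp-3 and dnj-14), and the 14 members on V included none. Among all protein-coding genes, 6.37% on X and 2.44% on V had such a peak.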
